A study of Mus musculus with 5 samples.

Results

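The 7 genes described here are the 3 Lrig genes, Lrig1, Lrig2 and Lrig3, and the 4 genes of the ErbB receptors, Egfr, Erbb2, Erbb3 and Erbb4, out of 21938 protein-coding mouse genes in the annotation. They were chosen by name, as a receptor family and the transmembrane proteins that act on it. Every Gfi1 and Lsd1 peak that touched one of these gene bodies or the 10 kb on either side was read. The material was 2 MG tumors, numbered 39 and 41, which model Group 3 medulloblastoma, a childhood tumor of the cerebellum. They grew from Prominin1+, lineage-negative stem cells sorted from the cerebella of C57BL/6 mice at P5-P7, given a stabilised mutant Myc and Gfi1 by retroviruses and transplanted into the cerebella of immunodeficient NSG mice. Both factors were thus read in cells that carry virally expressed Gfi1 and Myc, with no library from untransformed stem cells, and the frozen tissue may hold some host cells. Chromatin of each tumor was precipitated once with an antibody to Gfi1 and once with an antibody to Lsd1, which gave 4 libraries. Tumor 39 is replicate 1 and tumor 41 is replicate 2 of each factor. A pooled input of MGB tumors, made with Myc and Gfi1b, is the one control among the samples, and it was not analysed here.

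Lrig proteins span the cell membrane and carry leucine-rich repeats and immunoglobulin-like domains outside the cell. Lrig1 is known as a feedback inhibitor that promotes the degradation of ErbB receptors, and as a marker of quiescent epithelial stem cells. Lrig2 and Lrig3 are its paralogs, with roles that are less settled. The ErbB receptors are tyrosine kinases for ligands of the epidermal growth factor and neuregulin families. Erbb2 has no known ligand of its own, Erbb3 has an impaired kinase domain, and Erbb4 is a neuregulin receptor of neurons and glia. Gfi1 is a zinc finger repressor that binds sites with the core AATC, and Lsd1 is the histone demethylase that it recruits. Lrig3 was among the candidate Gfi1 targets that the study re-expressed in tumor cells. The study reported less Lrig3 RNA in MG tumor cells than in stem cells, and no survival advantage of the mice from its re-expression. The question for these genes was where the factors bound, how strongly by rank, and whether they bound together in both tumors.

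Sequences just before the start of genes with promoter peaks are shown first. The peaks are wider than these stretches and do not place binding within them. A promoter peak is a peak within 1000 bp of any annotated transcription start site (TSS) of the gene. The promoters of Lrig1 and Lrig3 had high-confidence peaks of both factors, that of Lrig2 of Lsd1 alone, and that of Erbb2 had no Gfi1 peak in tumor 41. A peak is called high-confidence where it ranks in the top 20% by score in replicate 1 and is covered over 50% or more of its length by top 20% peaks of replicate 2. The sequences are from RefSeq, build GRCm38.p6, read 5′ to 3′ along each gene and printed up to its first annotated base. Capitals mark AATC on either strand (GATT when read from the other strand), with its longer form AATCAC, and the Myc E-box CACGTG.
Lrig1 promoter, chr6:94700159-94700395, minus strand: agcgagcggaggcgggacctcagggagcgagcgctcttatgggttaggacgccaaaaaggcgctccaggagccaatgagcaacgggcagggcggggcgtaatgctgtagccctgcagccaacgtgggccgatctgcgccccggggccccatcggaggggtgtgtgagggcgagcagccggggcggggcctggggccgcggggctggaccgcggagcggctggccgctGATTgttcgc
Lrig2 promoter, chr3:104511919-104512168, minus strand: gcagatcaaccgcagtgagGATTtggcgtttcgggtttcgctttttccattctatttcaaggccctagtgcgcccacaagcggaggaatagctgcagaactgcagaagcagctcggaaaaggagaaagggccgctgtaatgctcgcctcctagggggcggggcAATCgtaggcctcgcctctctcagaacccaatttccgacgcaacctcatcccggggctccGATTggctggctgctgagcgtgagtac
Lrig3 promoter, chr10:125965969-125966167, plus strand: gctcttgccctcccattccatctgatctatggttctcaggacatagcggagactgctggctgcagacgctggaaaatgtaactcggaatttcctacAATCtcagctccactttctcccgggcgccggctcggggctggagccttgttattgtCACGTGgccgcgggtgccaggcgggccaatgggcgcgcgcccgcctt
Erbb2 promoter, chr11:98412234-98412469, plus strand: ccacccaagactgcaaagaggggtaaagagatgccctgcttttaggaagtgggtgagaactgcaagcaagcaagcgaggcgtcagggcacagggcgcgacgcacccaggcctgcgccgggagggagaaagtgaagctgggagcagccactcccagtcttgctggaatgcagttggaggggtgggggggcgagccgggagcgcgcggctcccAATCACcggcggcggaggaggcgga

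In the 250 bases before the RefSeq start, both strands were searched for AATC. They were also searched for AATCAC and for the longer site AATCACNGC, each of which contains the shorter ones. The Myc E-box was the last motif searched. Of the 7 genes, 6 had an entry in the promoter table, and Erbb3 had none. AATC occurred once in Lrig1, 3 times in Lrig2, once in Lrig3, once in Erbb2 and 2 times in Erbb4, and was not found in Egfr. It is short, and 69.0% of all 32841 promoters held it. AATCAC was found only in Erbb2 among the 6, against 9.14% of all promoters, and CACGTG only in Lrig3, against 6.02%. AATCACNGC was found in none of the 6 and in 0.776% of all promoters. These matches are descriptions of letters in a window and not of bound sites.

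The Lrig promoters held more CpG dinucleotides than the 3 ErbB promoters that had an entry. The ratio of observed to expected CpG was 0.852 in Lrig1, 0.82 in Lrig2 and 1.01 in Lrig3. It was 0.551 in Egfr, 0.631 in Erbb2 and 0.675 in Erbb4, and the median of all promoters was 0.374. All 6 promoters were therefore above the median, and 94.6% of promoters had a lower ratio than Lrig3.

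Each deposited list ranks its peaks by a score whose definition is not given. Scores were turned into percentiles within their own list, so that 100 would be the highest peak. The lists hold 36836 (Gfi1, tumor 39), 25078 (Gfi1, tumor 41), 30367 (Lsd1, tumor 39) and 33213 peaks (Lsd1, tumor 41), and 50.6% to 56.5% of them lie within 1000 bp of a TSS. Read counts per peak are not part of them. By the mapped reads that the study lists per library, the Gfi1 library of tumor 41 was deeper than that of tumor 39, and the Lsd1 library of tumor 39 deeper than that of tumor 41. With 2 tumors no test was run, and the error is the SD over the tumors.

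All 7 promoters were bound in most libraries, but by very different ranks. A promoter peak was found at 7 of the 7 genes for Gfi1 in tumor 39, at 6 in tumor 41, and at all 7 for Lsd1 in both tumors. Of all protein-coding genes, 65.0%, 54.3%, 58.5% and 61.7% had one in these libraries. Lrig1, Lrig2, Lrig3, Egfr, Erbb3 and Erbb4, 6 of the 7, had a peak in all 4 libraries, against 53.1% of all genes. When only peaks in the upper 50% of the score were counted, the 3 Lrig genes alone remained. The share of all genes at this cutoff is not given here. High-confidence Gfi1 peaks lay at the promoters of Lrig1 and Lrig3, 2 of 7 genes against 22.9% of all genes. This count was 5 with the Gfi1 library of tumor 41 left out, when Lrig2, Erbb3 and Erbb4 joined them. It then rests on 1 library, and the 22.9% does not apply to it. High-confidence Lsd1 peaks lay at Lrig1, Lrig2 and Lrig3, 3 of 7 against 25.9%, and both kinds lay at 2 of 7, against 19.5%. For Gfi1, 2 of 7 is near the background share, and with 7 genes a single gene moves each share widely.

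Lrig1, the ErbB inhibitor, had the highest promoter peaks of the 7 genes. Its peaks stood at the 98.6th and 97.7th percentile for Gfi1 and at the 97.1st and 95.3rd for Lsd1, in tumors 39 and 41. They spanned chr6:94698329-94702208 (mm10) at their widest, 3880 bp across the start of the gene, and 2829 bp at their narrowest. The mean was 98.2 ± 0.623 (SD, n = 2) for Gfi1 and 96.2 ± 1.31 for Lsd1. By its Gfi1 percentile it ranked above 94.9% and 96.6% of all protein-coding genes in tumors 39 and 41. Genes without a promoter peak count as lower in these shares, and only 65.0% and 54.3% of genes had one. In tumor 39, each factor had a further, weaker peak in intron 1 near an internal TSS, with a percentile of 9.01 for Gfi1 and 50.1 for Lsd1.

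Lrig3 followed, with percentiles of 96.4 and 88.8 for Gfi1 and 92.0 and 92.9 for Lsd1. The means were nearly equal, 92.6 ± 5.31 for Gfi1 and 92.4 ± 0.679 for Lsd1 (SD, n = 2). The Lrig3 peaks were wide and one-sided. They began 668 bp to 879 bp before the start and ran 2143 bp to 3443 bp into the gene, and the widest was 4323 bp, at chr10:125965289-125969611. The median promoter peak was 1837 bp to 2251 bp wide in the 4 lists. Over the 4 libraries, the genes with percentiles closest to Lrig3 among 21937 others were Fbxo33, with a mean absolute difference of 0.49 points, Phlda1, with 0.52, and Pik3r1, with 0.581.

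Lrig2 was the lowest of its family and varied more between the tumors. Its Gfi1 peak stood at the 91.4th percentile in tumor 39 and the 78.6th in tumor 41, and its Lsd1 peak at the 83.3rd and the 92.7th. The means were 85.0 ± 9.06 (SD, n = 2) for Gfi1 and 88.0 ± 6.61 for Lsd1. The Gfi1 peak of tumor 41 fell short of the upper 20%, and so Lrig2 had no high-confidence Gfi1 peak. Its peaks, 1981 bp to 2233 bp wide within chr3:104510581-104512813, also lay within 1000 bp of the start of 4930509H03Rik, a sense intronic transcript, and cannot be assigned to one of the starts.

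**Figure D1:**
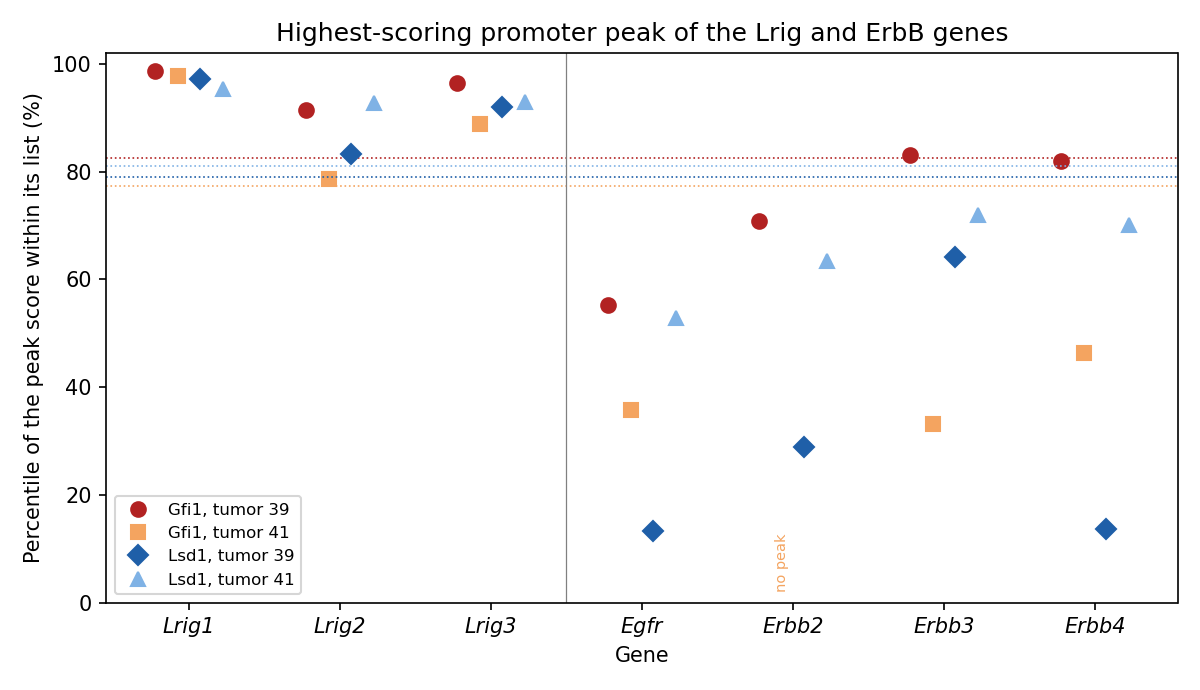
Percentile of the score of the highest promoter peak within its own list (y axis, %) for the 3 Lrig and 4 ErbB genes, with one symbol per library. Dotted lines mark, in the color of each library, the median over protein-coding genes with a promoter peak (77.4 to 82.5). The Lrig genes sit between 78.6 and 98.6, above every ErbB gene of the same library, and Erbb2 has no peak for Gfi1 in tumor 41.

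The promoters of the receptors had lower peaks than those of the Lrig genes in each of the 4 libraries. In the Gfi1 library of tumor 39 the gap was narrow, with Lrig2 at 91.4 and Erbb3, the highest receptor, at 83.0. In tumor 41 it was wide, with Lrig2 at 78.6 and Erbb4 at 46.3. For Lsd1, Lrig2 was 19.2 points above Erbb3 in tumor 39 and 20.6 points above it in tumor 41. The order of the families was the same when peaks were ranked only among those at a TSS, where the lowest Lrig value was 83.4, 65.1, 70.6 and 86.2 and the highest ErbB value 67.7, 27.0, 42.3 and 50.5, in the order Gfi1 in tumors 39 and 41 and Lsd1 in tumors 39 and 41. The 3 Lrig genes share ancestry and the libraries share tumors, so that these comparisons are not independent.

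Erbb3, the receptor with the impaired kinase, had percentiles of 83.0 and 33.2 for Gfi1 and 64.1 and 72.0 for Lsd1. Gfi1 therefore differed between the tumors far more than Lsd1, with means of 58.1 ± 35.2 and 68.1 ± 5.59 (SD, n = 2). The peaks lay mostly before the start, reaching 1119 bp to 1513 bp upstream and 167 bp to 834 bp into the gene. The Gfi1 peak of tumor 41 was the narrowest, with 1287 bp at chr10:128589485-128590771, and lay wholly inside the Lsd1 peak of that tumor.

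Erbb4, the neuregulin receptor, had percentiles of 81.9 and 46.3 for Gfi1 and 13.7 and 70.0 for Lsd1. The high values were Gfi1 of tumor 39 and Lsd1 of tumor 41, and the means were 64.1 ± 25.2 for Gfi1 and 41.9 ± 39.8 for Lsd1 (SD, n = 2). The width moved with the rank, from 3497 bp and 3539 bp in the libraries with the higher values to 1939 bp and 1568 bp in the others. All 4 peaks lay within chr1:69105175-69108965, also within 1000 bp of the start of Gm16076, a sense intronic transcript.

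Egfr, the receptor of epidermal growth factor, was bound in all 4 libraries at low to middle ranks. Gfi1 stood at the 55.2nd percentile in tumor 39 and the 35.7th in tumor 41, and Lsd1 at the 13.3rd and 52.8th. The position was the most constant of the receptors, with peaks of 1656 bp to 1820 bp within chr11:16751624-16753503, and the factors of one tumor shared 94.9% to 99.3% of each peak. The mean was 45.5 ± 13.8 for Gfi1 and 33.1 ± 27.9 for Lsd1 (SD, n = 2), the lowest Lsd1 mean of the 7.

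Erbb2, the receptor with no known ligand, was the only one of the 7 to lack a promoter peak in a library. Its Gfi1 peak stood at 70.8 in tumor 39 and was absent from the list of tumor 41, and its Lsd1 peaks stood at 28.8 and 63.4. The peaks were 1128 bp to 1776 bp wide within chr11:98411630-98413485. The means were 35.4 ± 50.1 for Gfi1, with the missing peak set to 0, and 46.1 ± 24.5 for Lsd1 (SD, n = 2). Gfi1 was thus not detectable there in tumor 41 at the caller's threshold, in the deeper of the Gfi1 libraries, which does not show that it was absent.

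**Figure D2:**
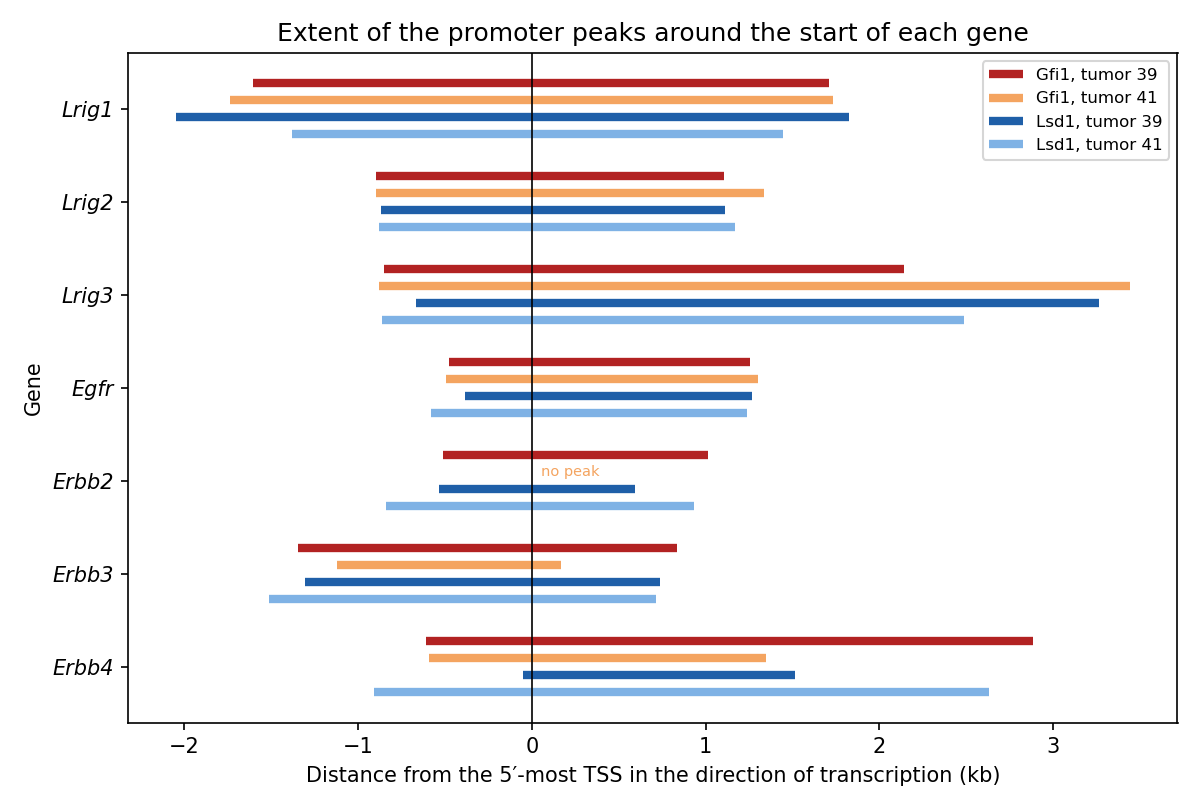
Extent of the highest promoter peak of each gene in each library around the 5′-most TSS (x axis, distance in kb in the direction of transcription, with the start at 0). The Lrig3 peaks reach 2143 bp to 3443 bp into the gene, the Erbb3 peaks extend further before the start than after it, and the Egfr peaks have nearly the same ends in each library.

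When the genes were ordered by their mean percentile, the ranges over the tumors of few neighbours were apart. For Gfi1 the order was Lrig1, Lrig3, Lrig2, Erbb4, Erbb3, Egfr and Erbb2, and the ranges of the tumors were apart only for Lrig1 and Lrig3, by 5.58 points in the mean. Even Lrig2 and Erbb4, 20.9 points apart, overlapped across tumors, since Erbb4 in tumor 39 stood above Lrig2 in tumor 41. For Lsd1 the order was Lrig1, Lrig3, Lrig2, Erbb3, Erbb2, Erbb4 and Egfr. There the ranges were apart between Lrig1 and Lrig3 (3.78 points), between Lrig2 and Erbb3 (19.9 points) and between Erbb3 and Erbb2 (21.9 points), and overlapped for the other neighbours. Within single libraries the order was steadier, with 17 of the 21 pairs of genes in the same order in all 4. Lrig3 was above Lrig2, and Lrig2 above each receptor, in every library. Among the receptors, Erbb4 was above Egfr in all 4 libraries, most narrowly for Lsd1 in tumor 39 (13.7 against 13.3), and Erbb3 was above Erbb2 in all 4 with the missing peak set to 0. The order of the other receptor pairs changed with the library.

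The difference between the factors turned with the tumor. In tumor 39 the Gfi1 percentile exceeded that of Lsd1 at each of the 7 promoters, by 1.48 points at Lrig1, 8.09 at Lrig2, 4.4 at Lrig3, 41.9 at Egfr, 42.0 at Erbb2, 18.9 at Erbb3 and 68.2 at Erbb4. In tumor 41 it stayed above Lsd1 at Lrig1, by 2.45 points, and the difference was -14.1 at Lrig2, -4.08 at Lrig3, -17.0 at Egfr, -38.8 at Erbb3 and -23.7 at Erbb4. At Erbb2 it was -63.4 with the missing peak set to 0. Of the 6 genes with a peak in all 4 libraries, 5 turned in this way. The same was seen at 50.8% of the 11653 genes with such peaks. Among the 1774 of these with a mean percentile no higher than that of Erbb3, a limit chosen after the values were seen, it was 76.4%, and it was so for Egfr, Erbb3 and Erbb4, the 3 receptors among them. The median difference over these 1774 genes was 16.8 points in tumor 39 and -22.2 points in tumor 41, so that promoters of low rank in general moved as the receptors did. In tumor 39 the Gfi1 list was longer than the Lsd1 list (36836 against 30367 peaks), and in tumor 41 it was shorter (25078 against 33213). For each factor the receptors ranked higher in the shallower of its libraries, which also had the longer list. The part of depth or of list length in this was not tested. At Lrig1 alone of the 7 was one factor, Gfi1, above the other in both tumors, by only 1.48 and 2.45 points. The share of all genes for which this holds is not given here.

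**Figure D3:**
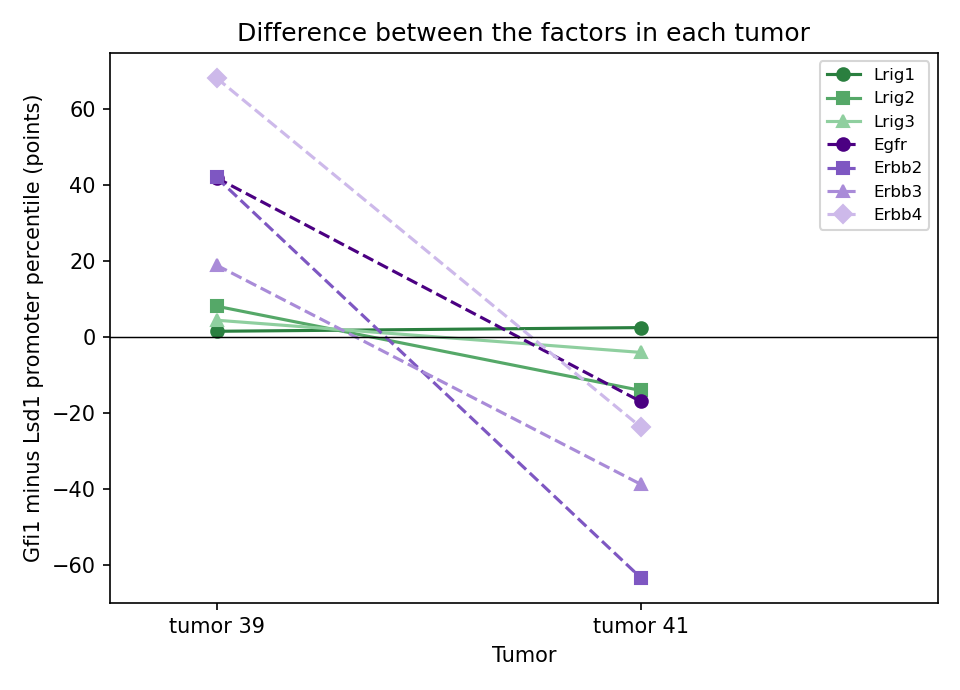
Gfi1 minus Lsd1 promoter percentile (y axis, points) in tumors 39 and 41 for each of the 7 genes, with the missing Gfi1 peak of Erbb2 in tumor 41 set to 0. The 7 values of tumor 39 lie above 0, and in tumor 41 only Lrig1 does, at 2.45.

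Most Lsd1 peaks at these genes lay on a Gfi1 peak of the same tumor. In tumor 39, 13 of the 25 Gfi1 peaks in the gene windows overlapped an Lsd1 peak (52.0%, against 69.0% of the whole list), and 13 of the 15 Lsd1 peaks overlapped a Gfi1 peak (86.7%, against 77.0%). In tumor 41, 12 of 12 Gfi1 peaks overlapped Lsd1 (against 88.9% of the list), and 12 of 13 Lsd1 peaks overlapped Gfi1 (92.3%, against 62.6%). The mean share of Gfi1 peaks was 76.0% ± 33.9 (SD, n = 2). The Gfi1 peaks without Lsd1 were thus all in tumor 39, whose Gfi1 list is the longest of the 4. The Lsd1 peak without Gfi1 in tumor 41 was the one at the Erbb2 promoter.

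Away from promoters, Lrig1 and Lrig2 each had one site bound in all 4 libraries, and the other genes had none. A distal site was made of peaks over 1000 bp from any TSS of any gene, with touching peaks of the 4 lists merged. The windows of the 7 genes held 17 distal sites, of which 2 were found in all 4 libraries, 1 in 3, 1 in 2 and 13 in a single library, 11 of them in Gfi1 of tumor 39 alone. A distal site in all 4 libraries was found at 14.3% of all protein-coding genes. Among the 5112 genes of 40 to 200 kb, a class that was set after the values were seen and that holds Lrig1, Lrig2, Lrig3 and Egfr, it was 20.9%, against 2 of these 4. Lrig2 is counted there only through a coding transcript of 2 exons that extends the gene.

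The Lrig1 site lay 52559 bp from the start, in intron 3 of the main transcripts. It spanned chr6:94645519-94649679, and the 4 libraries shared 1634 bp of it, chr6:94647111-94648744. Gfi1 stood there at the 71.7th and 65.8th percentile in tumors 39 and 41, and Lsd1 at the 81.2nd and 68.7th. The medians of the 4839 distal sites found in all 4 lists were 54.2, 44.4, 55.7 and 55.7, so that the Lrig1 site was above the median in each library and below the Lrig1 promoter in each. Gfi1 in tumor 39 had 5 weaker internal peaks in Lrig1, with percentiles from 6.38 to 48.0. One of them, at 30.1, lay under the Lsd1 peak of that tumor near the internal TSS, and the others overlapped no Lsd1 peak.

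The Lrig2 site lay at a similar rank in a different setting. Gfi1 stood there at 70.8 and 70.9 in tumors 39 and 41, and Lsd1 at 65.8 and 70.6. It spanned chr3:104440158-104442711, with 1526 bp shared by the 4 libraries, and its midpoint lay 70484 bp from the start. The shared interval lay 11278 bp past the end of the 18-exon coding transcript that reaches furthest. It was inside the gene only through intron 1 of a coding transcript of 2 exons that ends further on. A weaker site at the far end of that transcript, chr3:104395844-104397804, was bound by Gfi1 at the 37.7th and 30.0th percentile and by Lsd1 in tumor 41 at the 52.4th. Another, chr3:104424029-104425378, was found in tumor 41 alone, at 45.0 for Gfi1 and 14.9 for Lsd1.

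The central 300 bases of each shared interval, on the strand of the gene, are given because these were the only distal sequences of the 7 genes bound in all 4 libraries. Capitals mark the motifs as above.
Lrig1 distal site, chr6:94647778-94648077, minus strand: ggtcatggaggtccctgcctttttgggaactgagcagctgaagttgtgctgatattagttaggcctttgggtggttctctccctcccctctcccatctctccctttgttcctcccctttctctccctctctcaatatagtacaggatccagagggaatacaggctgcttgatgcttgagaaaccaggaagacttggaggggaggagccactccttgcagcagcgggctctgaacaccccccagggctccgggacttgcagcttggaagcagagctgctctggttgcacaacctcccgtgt
Lrig2 distal site, chr3:104441789-104442088, minus strand: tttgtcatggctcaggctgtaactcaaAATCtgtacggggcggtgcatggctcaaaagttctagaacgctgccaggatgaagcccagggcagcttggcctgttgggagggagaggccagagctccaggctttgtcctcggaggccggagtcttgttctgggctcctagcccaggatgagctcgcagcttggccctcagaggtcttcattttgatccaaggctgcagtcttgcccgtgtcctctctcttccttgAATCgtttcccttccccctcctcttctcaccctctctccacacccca

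No AATC was found in the Lrig1 centre and 2 in the Lrig2 centre. Of the 4387 distal sites whose peaks share an interval in all 4 lists, 70.1% held at least 1 in the same central window. Over the whole shared intervals there were 7 and 9, with 1 AATCAC in Lrig1 and 1 CACGTG in Lrig2. The ratio of observed to expected CpG was 0.198 at the Lrig1 site and 0.358 at the Lrig2 site, below the 0.852 and 0.82 of the promoters of these genes.

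The receptor genes and Lrig3 had few or no internal peaks. Egfr, with a body of 165956 bp, had no peak beyond its promoter in any list. Erbb4 is 1075874 bp long and had a single internal peak, in intron 2, for Gfi1 in tumor 39 at the 10.5th percentile. Erbb2 and Erbb3, of 25247 bp and 22130 bp, had no internal peak. Lrig3, of 49192 bp, had one weak peak for Gfi1 in tumor 39, at the 12.6th percentile. The longest of the 7 genes thus had fewer internal peaks than Lrig1 and Lrig2. Those of Lrig2 all lay past the end of its 18-exon coding transcripts, and count as internal only through the coding transcript of 2 exons. The number of internal peaks in other genes of such lengths is not given here. Of all genes of 40 to 200 kb, 20.9% had a distal site in all 4 libraries, so that most had none, as Egfr and Lrig3.

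**Figure D4:**
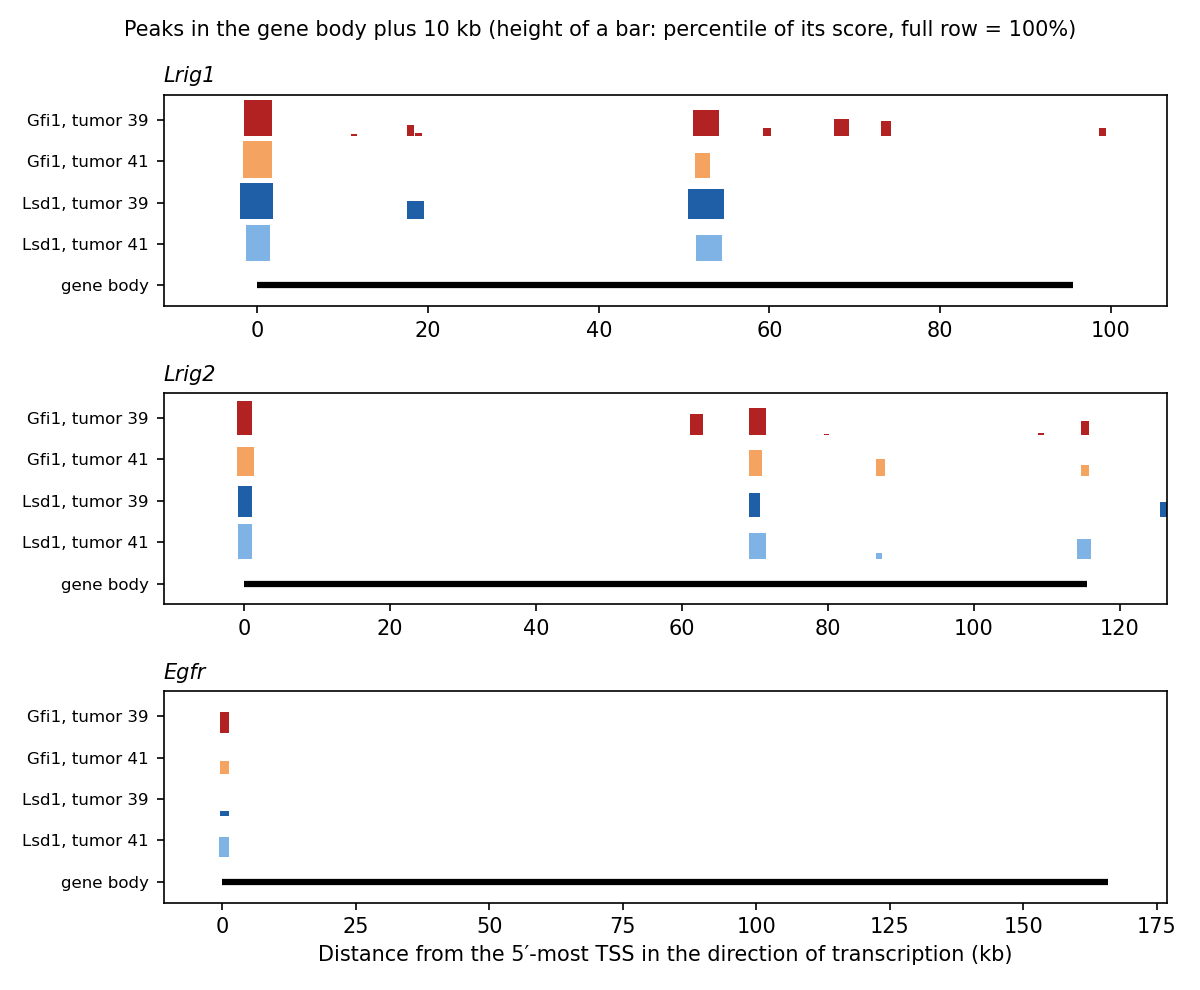
Peaks in the gene body and 10 kb on either side for Lrig1, Lrig2 and Egfr (x axis, kb from the 5′-most TSS in the direction of transcription), with one track per library and the height of a bar giving the percentile of its score. Lrig1 and Lrig2 each have a distal site in all 4 tracks, with midpoints 52559 bp and 70484 bp from the start, while Egfr has its promoter peak only.

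Some peaks near Erbb2 and Erbb3 lay at the promoters of neighbours. Pa2g4, which encodes an ErbB3-binding protein, lies 1535 bp from Erbb3 and had high-confidence peaks of both factors. In tumors 39 and 41 it stood at 96.7 and 93.8 for Gfi1 and at 88.9 and 88.6 for Lsd1, above Erbb3 itself in each library. Mien1, which overlaps the end of Erbb2, and the antisense transcript Gm12352 share one peak, at 70.6 and 54.7 for Gfi1 and 59.3 and 65.5 for Lsd1. This peak was present in the Gfi1 list of tumor 41, where the Erbb2 promoter had none. Grb7, an adaptor that binds ErbB2, had a peak for Gfi1 in tumor 39 at the 10.7th percentile and one for Lsd1 in tumor 41 at the 32.6th, the latter outside the Erbb2 window.

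The genes that act with the receptors were read in the same way, from lists chosen by function. Of the 11 ErbB ligands, 5 had a promoter peak in all 4 libraries (45.5%, against 53.1% of all protein-coding genes), and 2 had none in any. Of all 21938 protein-coding genes, 7379 had none in any. No ligand had a high-confidence peak of either factor, against 22.9% of all genes for Gfi1 and 25.9% for Lsd1. Egf was the highest, at 73.8 and 88.1 for Gfi1 and 73.1 and 73.6 for Lsd1. Btc, Hbegf, Nrg2, Nrg4, Tgfa, Nrg1, Nrg3 and Areg followed, with means over the libraries of 63.9, 53.7, 44.0, 39.7, 37.6, 30.9, 30.0 and 21.1 when a missing peak counts as 0, and Epgn and Ereg had no peak. The median of this mean over the 11 ligands was 37.6, over the 7 Lrig and ErbB genes 63.1, and over all protein-coding genes 51.8. Of the neuregulin genes, Nrg1 and Nrg3 each lacked a promoter peak in at least 1 library.

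By their median rank, the inhibitors and adaptors stood nearer to the Lrig genes than to the receptors. All 16 negative regulators of ErbB signalling had a promoter peak in all 4 libraries, 6 had a high-confidence Gfi1 peak and 11 a high-confidence Lsd1 peak, and their median was 85.7. Of all protein-coding genes, 53.1% had a promoter peak in all 4 libraries. High-confidence peaks lay at 22.9% of all genes for Gfi1 and at 25.9% for Lsd1. The highest were Spred1, an inhibitor of Ras signalling, with a mean of 98.1, and Rnf41, a ubiquitin ligase for Erbb3, with 97.8, and the lowest were Spry4 with 56.7 and Cblc with 43.5. Of the 19 adaptors and signal carriers, 17 had peaks in all 4 libraries (89.5%), 5 a high-confidence Gfi1 and 9 a high-confidence Lsd1 peak, with a median of 83.4. For Gfi1, 5 of 19 is near the share of all genes. Shc1, at 97.5, and Nck1, at 96.0, were the highest, and Pik3r2, at 59.7, and Stat5b, at 57.1, the lowest. The Lrig genes, with means of 97.2, 86.5 and 92.5 in the order Lrig1, Lrig2 and Lrig3, were above both medians. These lists were not tested against other genes.

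Most relatives of the Lrig genes stood lower than the Lrig genes, and the median of the other kinases lay among the means of the receptors. Of 21 genes whose proteins join leucine-rich repeats to immunoglobulin domains, 11 had promoter peaks in all 4 libraries (52.4%) with a median of 44.3. Of all protein-coding genes, 53.1% had such peaks. Among the 21, 2 had a high-confidence Gfi1 peak and 4 a high-confidence Lsd1 peak, against 22.9% and 25.9% of all genes. Lrrc24, at 93.8, and Lingo1, at 90.5, were the highest, and Lrrn1, at 0.777, and Lingo4, with no peak, the lowest. Lrig1 was above all 21, and Lrig3 was above all but Lrrc24. Lrig2, at 86.5, was below both Lrrc24 and Lingo1. Of 50 other receptor tyrosine kinases, 23 had peaks in all 4 libraries (46.0%), 7 had none, and the median was 41.3, with Epha7, at 98.7, and Igf1r, at 95.3, the highest. Tek and Tie1 were among those with none. Such a lack of any promoter peak was found at 7379 of all 21938 protein-coding genes. The receptor means of 39.3 for Egfr, 40.8 for Erbb2, 63.1 for Erbb3 and 53.0 for Erbb4 compare with this median, 2 below it and 2 above.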

How the data were processed

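ChIP-seq peak lists of Gfi1 and Lsd1 in 2 MG tumors were used. The authors mapped the reads with BWA 0.6.2 to mm10, dropped duplicates and, for every library on its own, ran MACS with default settings against an input. The deposited lists give each peak a position and a score of 50.0 or more, whose definition is not given in the sources used here. The score replaced the enrichment by which the study selected high-confidence peaks. This gave 4387 Gfi1 and 5181 Lsd1 high-confidence peaks, fewer than the study reports for each factor. A gene with or without such a peak here need not have the same call in the study. The authors annotated with GENCODE M9. GENCODE M21 for GRCm38, the same build, was used here.

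Percentiles are the share of peaks in a list with a lower score plus 50% of the ties. The highest promoter peak stands for a gene. Overlap required 1 bp. The rule for named genes took all 7 genes, other genes whose start lies near a peak in their windows, the 3 most like Lrig3, all ligands, and the 2 highest and 2 lowest of each other list. Members and lists were chosen with earlier results of these data known. The steps were tested on simulated peaks and used Python 3.11.15, numpy 2.4.6 and pysam 0.24.0. Alternatives varied the TSS window and set of starts, the score cutoff, the overlap, the flank and the libraries used. The search for motifs at distal sites, like the limits named with the results, was chosen after seeing the data. Same-numbered libraries of the factors come from one tumor. The input reads and the expression data were not analysed here.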

Additional observations from a re-analysis of the deposited data

Results flagged for a closer look

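At 6 of the 7 promoters the Gfi1 percentile was above that of Lsd1 in tumor 39 and below it in tumor 41, counting Erbb2 with its missing peak. Among genes with a peak in all 4 libraries, it was so at 5 of 6 of these promoters and at 50.8% of all 11653. Of the 1774 of them that ranked no higher than Erbb3, it was so at 76.4%. The change in the difference from tumor 39 to tumor 41 was 22.2 points at Lrig2, 8.47 at Lrig3, 58.9 at Egfr, 105 at Erbb2 with the missing peak set to 0, 57.7 at Erbb3 and 91.9 at Erbb4. Each is called out because the tumors moved in opposite directions, with 1 library per factor and tumor, and the difference was not tested. The Gfi1 list was longer than the Lsd1 list in tumor 39 and shorter in tumor 41, and the part of list length was not tested. The larger changes were at the receptors, which rank low, and low-ranked promoters in general moved in this way, with median differences of 16.8 points in tumor 39 and -22.2 in tumor 41 against 4.76 and -4.76 over all 11653 genes.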

How the results depend on the processing

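No paired analysis was possible because the results come from no test, and differences within each tumor are given as values only. The count of genes with a promoter peak in all 4 libraries, 6, was 3 with peaks in the upper 50% of the score (Lrig1, Lrig2 and Lrig3) and 2 in the upper 20% (Lrig1 and Lrig3), and from 6 to 7 with a library left out, 7 without Gfi1 of tumor 41. The count with a high-confidence Gfi1 peak, 2, was 1 at the upper 10% (Lrig1) and from 2 to 5 with a library left out, 5 without Gfi1 of tumor 41. For Lsd1 the count of 3 stayed between 2 and 4. Shares of all genes under these alternatives are not given here. The count of distal sites in all 4 libraries, 2, rose to 5 with 50 kb of flank, with sites near Lrig1, Erbb2 and Erbb3 added. The median Lsd1 percentile of the 7 genes, 68.1, was 46.4 when ranked among peaks at a TSS only, and that of Gfi1, 64.1, was also 46.4. Other promoter windows and sets of starts left the counts within 1.5 times. Read counts per peak are not in the lists, so that the precision of a single peak is not known, and the score has no known unit. The missing Gfi1 peak of Erbb2 is in the deeper of the Gfi1 libraries.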
